A study of Homo sapiens with 6 samples.

Results

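The genes described here encode 49 proteins that act at replication origins and replication forks, out of 39323 genes with reads in the deposited count table. They were taken by symbol: the replicative DNA polymerases, the sliding clamp and its loader, the single-strand binding protein RPA, enzymes that finish Okazaki fragments, GINS, the origin recognition complex (ORC), licensing and firing factors, the chromatin assembly factor CAF-1 and fork protection proteins. The MCM helicase genes were left out of the choice and are given only for comparison. All 49 symbols were found, and all 49 passed the filter on low counts, with at least 167 reads in every library. They belonged to 13 functional groups of 2 to 6 genes.

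By the sample titles, the study sequenced polyadenylated RNA from MDA-MB-231 cells, an established human breast cancer line with mesenchymal features that lacks oestrogen and progesterone receptors. The cell line field of 5 of the 6 samples gives other names that count upward from it, and the titles were followed. Cells received an siRNA duplex against SF3B6, a small protein of the SF3b complex that helps the U2 snRNP recognise the intron branch point (siSF3B6), or a non-targeting duplex (siNC). Both groups were grown in the same medium with serum and transfected with the same lipid reagent, the time of harvest is not given in the sources used here, and each group had 3 libraries. A single duplex represented the knockdown, and no library came from untransfected cells. The design text calls the replicates biological, but no label names separate cultures, so p-values measure only the spread between these libraries.

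Replication starts in a fixed order. ORC marks origins and, with CDC6 and CDT1, loads the MCM helicase, a step that geminin blocks by binding CDT1. The DBF4-dependent kinase and the firing factors then add CDC45 and GINS to make the active helicase. DNA polymerase alpha-primase lays down primers, polymerase epsilon is known for the leading strand and polymerase delta for the lagging strand, and both run with the PCNA clamp. Many of these genes are transcribed around the entry into S phase under E2F factors. RNA from a whole culture cannot tell fewer cells in S phase from less of an mRNA in each cell.

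The targeted gene was checked first. SF3B6 stood at 86.4, 80.6 and 102 CPM (counts relative to the library total, scaled by TMM factors) in siNC replicates 1, 2 and 3, and at 22.5, 25.02 and 21.3 CPM in the siSF3B6 replicates, which is 25.6% of the siNC level. Library totals were between 28504091 and 38546037 reads. The control group was not uniform: the share of mitochondrially encoded reads was 3.38% and 3.93% in siNC replicates 1 and 2, 9.07% in siNC replicate 3 and 10.6% to 11.8% in siSF3B6. The same pair of controls also had more genes with only 1 to 9 reads, 13952 and 14956, where the other 4 libraries had 7731 to 8325. The counts over the 49 genes are therefore also given against siNC replicate 3 alone and without the libraries numbered 3. Those of the 49 whose call changed in these subsets are named. Values of single genes in these subsets are given for only some, and values of other genes moved as well. Of the 6 markers listed as present in this line, VIM stood at a mean of 500 FPKM (fragments relative to gene length and library total) in siNC, and the summed level of the 6 was 5502 to 6022 CPM in siNC and 6105 to 6311 CPM in siSF3B6 libraries. CAV1 was called higher (log2 fold change 0.42), and the other 5 of that list were not called. Of the 6 listed as absent or low, ESR1 and PGR stood at 0.107 and 0.225 CPM in siNC, near 0, and ERBB2, the largest part of the list, at 59.8 CPM in siNC, with 56.6 CPM in siSF3B6. The sum of those 6 was 74.5 to 90.9 CPM in siNC and 98.5 to 103 CPM in siSF3B6 libraries, and 3 of the 4 that could be tested (CDH1, EPCAM and GATA3) were called higher, which moved with the groups and whose part in the results was not tested. Markers of other cell types (8 genes, 5 tested, 1 called lower and 1 higher) summed to 25.3 to 33.0 CPM in siNC and 26.6 to 31.8 CPM in siSF3B6. In that list CD14 (13.5 CPM in siNC), PECAM1 (9.18 CPM, called lower) and COL1A1 (6.31 CPM) made up most of the sum, PTPRC was called higher (0.561 to 1.14 CPM), and CD3E, VWF and ALB were near 0. The part of these markers in the results was not tested.

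Most of the replication genes were lower after SF3B6 knockdown. Of the 49, 38 were called lower (77.6%), 1 was called higher and 10 were not called, by edgeR's quasi-likelihood test at a Benjamini-Hochberg adjusted p under 0.05. Among all 16869 genes tested, 20.0% were called lower and 20.8% higher. With a change of at least 1.5-fold as well, 20 of the 49 were called lower, against 7.41% of all genes tested. In 39 of the 49 (79.6%) every siSF3B6 library lay below every siNC library, a pattern found in 25.9% of all genes tested. In 2 of the 49, ORC3 and ORC4, every siSF3B6 library lay above every siNC library, against 26.3% of all genes. The other 8 overlapped between groups.

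The changes were moderate and shared across most of the genes. The median log2 fold change was -0.55 over the 49 genes and 0.00 over all genes tested, and single genes ran from -1.13 (POLD1) to 0.41 (ORC4). Only POLD1 and RFC4 were lower by at least 2-fold. The lowest 10% of all genes tested lay below -0.57, and 21 of the 49 were among them. Reads of the 49 genes summed to 3020, 2951 and 2936 CPM in siNC replicates 1, 2 and 3, and to 2190, 2204 and 2212 CPM in the siSF3B6 replicates. On this sum siNC replicate 3 lay beside the other controls. Its mitochondrial share was near that of the siSF3B6 libraries, and the part of that share in the sum was not tested.

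**Figure D1:**
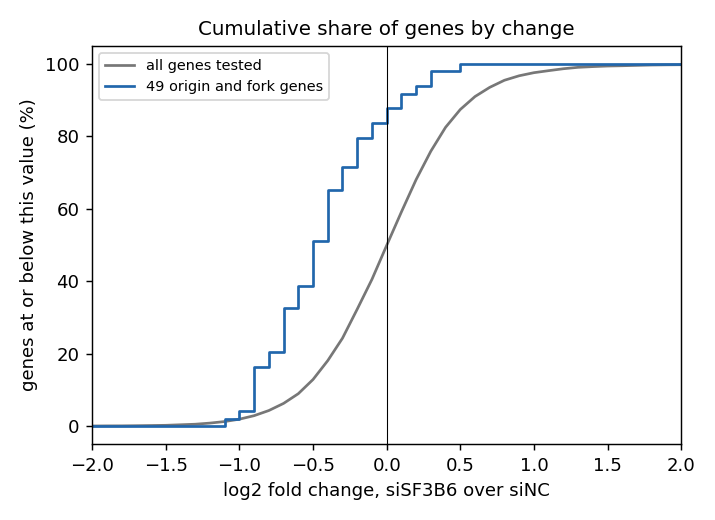
Cumulative share of genes (vertical axis, percent) at or below each log2 fold change of siSF3B6 over siNC (horizontal axis), for all 16869 genes tested (grey line) and the 49 origin and fork genes (blue steps, in intervals of 0.1). The blue steps lie to the left, with a median of -0.55 against 0.00.

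The calls were recomputed within subsets of the libraries because the controls differed. Against siNC replicate 3 alone, 32 of the 49 were called lower and 0 higher, against 7.24% of 17851 genes called lower and 6.60% called higher, and the median was -0.54. The genes that lost the lower call were POLA1, PRIM2, POLD2, POLE4, PCNA and TOPBP1. That fit assumes that the lone control varies like the siSF3B6 libraries. Without the libraries numbered 3, 41 of the 49 were called lower and 3 higher, against 27.0% of 17045 genes called lower and 28.6% called higher, and the median was -0.51. The gained calls were RPA1, GMNN and DONSON lower and ORC3 and DBF4 higher. In both subsets the sign of all 38 genes called lower stayed negative.

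**Figure D2:**
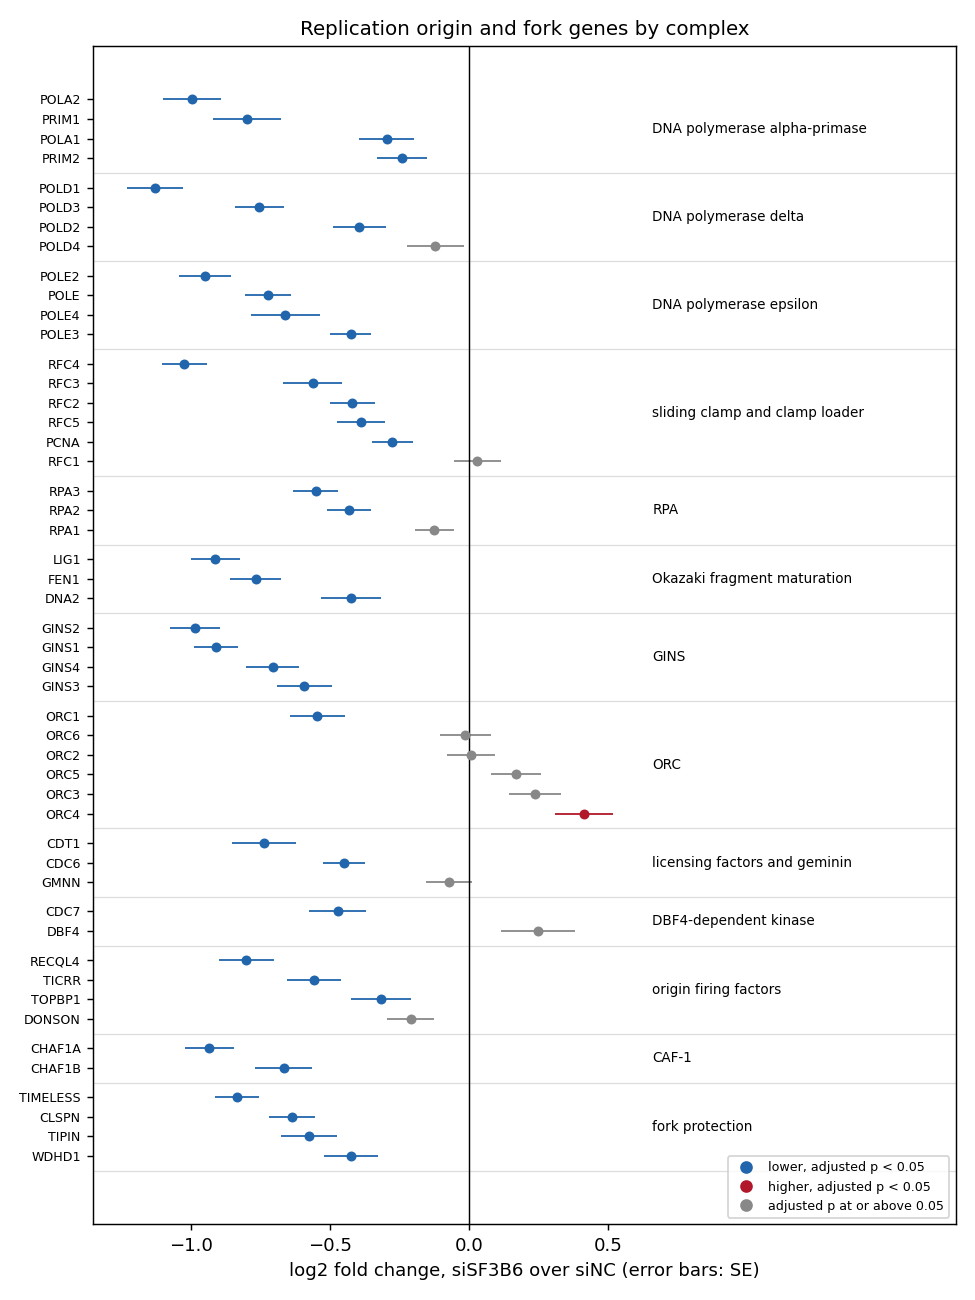
Log2 fold change of siSF3B6 over siNC (horizontal axis, points) with its standard error (bars) for each of the 49 genes, grouped by complex. Blue points were called lower, red higher and grey not called. DNA polymerase alpha-primase, DNA polymerase epsilon, Okazaki fragment maturation, GINS, CAF-1 and fork protection lie wholly in blue, and ORC holds the only red point, ORC4.

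Promoter sequence was read for these genes because many are textbook E2F targets. RefSeq promoters on GRCh38.p14, each running from 250 bases before to 50 bases after a transcription start, were found for 42 of the 49 (not for DNA2, DONSON, GINS4, POLD3, RECQL4, RPA2 and RPA3). A gene counted when any of its starts held a word, and 10 of the 42 had more than 1 start. The words searched on both strands were TTTCCCGC, TTTCGCGC, TTTGCCGC and TTTGGCGC for E2F, CCAAT for NF-Y, and TTTGAA for the CHR element. An E2F word was present in 19 of 42 promoters (45.2%), against 6.34% of 11304 other tested genes and 3.99% of all 27305 genes in the table. Of the 32 genes called lower with a promoter, 17 held one (53.1%), and of the 10 others 2 did (20.0%), GMNN and ORC3. CCAAT was present in 54.8% of the 42 and 42.8% of the other tested genes, and shared no base with an E2F word in any of them. TTTGAA was present in 4.76% of the 42, those of DBF4 and POLE3, against 13.8% of the other tested genes. That was 1 of the 32 called lower (3.12%) and 1 of the 10 others (10.0%). The E2F words lay between positions -137 and 14, where 0 is the first transcribed base. A match is a description of the letters, and no match says only that these letters are not in the window. The share of E2F words is a property of the genes listed, not of the knockdown, and its part in the changes was not tested.

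The sequences that follow, from 100 bases before to 20 bases after the start, are those of 3 GINS genes, POLE2 and CDC6, which were called lower and hold a word, ORC3, which holds a word and was not called, and ORC1, which was called lower and holds none. Capitals mark the E2F word, written on the strand of the gene, 5′ to 3′.
GINS1 (chr20:25407573-25407693, plus strand): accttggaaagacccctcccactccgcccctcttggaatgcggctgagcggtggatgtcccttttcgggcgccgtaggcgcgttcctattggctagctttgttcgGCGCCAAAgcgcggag
GINS2 (chr16:85688934-85689054, minus strand): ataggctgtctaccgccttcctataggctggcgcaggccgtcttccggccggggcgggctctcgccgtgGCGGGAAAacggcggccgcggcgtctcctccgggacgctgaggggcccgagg
GINS3 (chr16:58392371-58392491, plus strand): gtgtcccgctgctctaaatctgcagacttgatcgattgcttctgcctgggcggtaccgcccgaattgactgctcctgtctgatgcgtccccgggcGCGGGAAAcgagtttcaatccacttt
POLE2 (chr14:49688194-49688314, minus strand): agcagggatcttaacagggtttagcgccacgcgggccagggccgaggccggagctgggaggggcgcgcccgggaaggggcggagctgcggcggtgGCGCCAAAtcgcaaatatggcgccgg
CDC6 (chr17:40287779-40287899, plus strand): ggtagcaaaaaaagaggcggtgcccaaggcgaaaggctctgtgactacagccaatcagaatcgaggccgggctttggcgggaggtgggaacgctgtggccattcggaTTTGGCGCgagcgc
ORC3 (chr6:87590035-87590155, plus strand): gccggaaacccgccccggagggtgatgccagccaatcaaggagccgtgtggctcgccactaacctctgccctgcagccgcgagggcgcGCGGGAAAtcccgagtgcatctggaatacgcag
ORC1 (chr1:52404403-52404523, minus strand): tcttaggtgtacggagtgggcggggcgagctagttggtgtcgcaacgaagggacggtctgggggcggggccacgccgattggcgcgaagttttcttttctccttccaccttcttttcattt

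In GINS1 the capitals cover positions 5 to 12, in GINS2 -31 to -24, in GINS3 and POLE2 -5 to 2, in CDC6 7 to 14 and in ORC3 -12 to -5. The word falls close to or across the start in these genes, farthest upstream in GINS2, and in ORC3, which was not called, it lies just before the start. Large decreases occurred with and without a word: POLA2, GINS2, POLE2, LIG1 and GINS1 hold one, and POLD1, RFC4, CHAF1A, TIMELESS, PRIM1 and FEN1 hold none in the window searched.

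All 4 genes of DNA polymerase alpha-primase, which makes the RNA-DNA primers, were called lower, with a median of -0.55. POLA2, the regulatory subunit of the polymerase (chromosome 11, 65261762 to 65305589), stood at 24.1, 26.4 and 23.6 CPM in siNC replicates 1, 2 and 3 and at 12.6, 13.7 and 10.9 CPM in siSF3B6. The groups did not overlap, and the log2 fold change was -0.995 (SE 0.10, edgeR adjusted p = 1.40e-05). PRIM2, the large primase subunit, had the smallest change of the 4, from 37.9, 37.4 and 44.2 CPM to 33.2, 32.8 and 35.3 CPM. Its siSF3B6 libraries all lay below the controls by a small margin, at -0.24 (SE 0.09, edgeR adjusted p = 0.0476). PRIM1, the catalytic primase subunit, fell by 0.80 on the log2 scale and POLA1, the catalytic polymerase subunit, by 0.30 (edgeR adjusted p = 2.26e-04 and 0.0294). The calls of POLA1 and PRIM2 were lost against siNC replicate 3 alone, at log2 fold changes of -0.33 and -0.40 (edgeR adjusted p = 0.142 and 0.0543). Without siNC replicate 1, siSF3B6 replicate 1 or siSF3B6 replicate 2, 2 of the 4 stayed called. PRIM2 was also not called without siNC replicate 2 (edgeR adjusted p = 0.0590) or siNC replicate 3 (-0.16, edgeR adjusted p = 0.160), and POLA1 was at -0.18 on the log2(FPKM + 1) scale (limma adjusted p = 0.0571). POLA2 shares 35.1% of its exonic bases with AP000944.2, and PRIM1 16.2% with AC117378.1 and NACA, on the same strand in GENCODE 29, so part of their reads may be shared.

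The lagging-strand polymerase delta was lower in 3 of its 4 subunits, with a median of -0.57. POLD1, its catalytic subunit (chromosome 19, 50384204 to 50418016), had the largest decrease of the 49, from 80.5, 80.1 and 67.4 CPM in siNC to 36.4, 37.2 and 30.5 CPM in siSF3B6. That is 45.7% of the siNC level with no overlap, at a log2 fold change of -1.13 (SE 0.10, edgeR adjusted p = 4.59e-06). POLD3, a subunit that binds PCNA, fell by 0.75 on the log2 scale and POLD2, the scaffold subunit, by 0.39. POLD4, the smallest subunit, stood at 63.9, 66.4 and 60.0 CPM in siNC, against 60.5, 65.6 and 48.9 CPM in siSF3B6. The groups overlapped, and the change of -0.12 was not called (SE 0.10, edgeR adjusted p = 0.375). POLD2 was not called against siNC replicate 3 alone (-0.33, edgeR adjusted p = 0.139), and its change was -0.21 after correction for GC content and length. With the same correction POLD1 was at -0.84, and RFC4 had the largest decrease of the 49, at -1.075. Against siNC replicate 3 alone POLD1 was at -0.97 and POLE2 at -1.04, so the rank of POLD1 changed with the setting. POLD4 shares 21.3% and POLD1 8.6% of its exonic bases with another gene on the same strand.

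Every subunit of the leading-strand polymerase epsilon was called lower, with a median of -0.69. POLE2, which anchors the polymerase to the helicase, stood at 28.2, 25.2 and 28.9 CPM in siNC, against 13.96, 14.97 and 13.7 CPM in siSF3B6. The groups lay far apart, at a log2 fold change of -0.95 (SE 0.09, edgeR adjusted p = 9.25e-06). POLE, the catalytic subunit, fell by 0.72 on the log2 scale and POLE4, a small histone-fold subunit, by 0.66. POLE3, the histone-fold partner of POLE4, had the smallest change of the 4, from 132, 123 and 122 CPM to 93.5, 93.9 and 92.8 CPM. The 3 siSF3B6 values were nearly equal, all below the controls, at -0.43 (SE 0.07, edgeR adjusted p = 5.51e-04). The call of POLE4 was lost against siNC replicate 3 alone (-0.40, edgeR adjusted p = 0.114).

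Of the clamp and its loader, 5 of 6 genes were called lower, with a median of -0.40. PCNA, the ring that tethers polymerases to DNA and the most abundant of the 49 per length, stood at 223, 214 and 232 CPM in siNC, against 178, 188 and 188 CPM in siSF3B6. The groups did not overlap, but the decrease was small, at -0.28 (SE 0.07, edgeR adjusted p = 0.00973), or 82.7% of siNC. Without siSF3B6 replicate 1 it was -0.25 and not called (edgeR adjusted p = 0.0581), and against siNC replicate 3 alone it was not called either (edgeR adjusted p = 0.0605).

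The loader subunits were unequal. RFC4, a small subunit of the loader (chromosome 3, 186789880 to 186807058), stood at 68.8, 65.4 and 62.7 CPM in siNC, against 31.8, 31.4 and 33.6 CPM in siSF3B6. All siSF3B6 values lay well below the controls, at -1.02 (SE 0.08, edgeR adjusted p = 2.07e-06). RFC1, the large subunit specific to the replication loader (chromosome 4, 39287456 to 39366375), stood at 43.7, 41.3 and 43.8 CPM in siNC, against 43.9, 40.6 and 47.0 CPM in siSF3B6. Those values overlapped, and the change of 0.03 was not called (SE 0.08, edgeR adjusted p = 0.803). RFC2, RFC3 and RFC5, the other small subunits, fell by 0.42, 0.56 and 0.39 on the log2 scale. The difference between RFC1 and RFC4 was not tested. RFC5 shares 10.6% of its exonic bases with AC131159.2 and WSB2 on the opposite strand.

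RPA coats single-stranded DNA at the fork, and 2 of its 3 subunits were called lower. RPA3, the smallest, stood at 66.9, 61.0 and 63.3 CPM in siNC, against 41.2, 44.0 and 45.4 CPM in siSF3B6. No values overlapped, at -0.55 (SE 0.08, edgeR adjusted p = 1.71e-04). RPA2, the middle subunit, fell by 0.43 on the log2 scale. RPA1, the large DNA-binding subunit, stood at 178, 175 and 180 CPM in siNC, against 164, 161 and 164 CPM in siSF3B6. Its siSF3B6 libraries all lay below the controls, yet the change of -0.12 was not called (SE 0.07, edgeR adjusted p = 0.184).

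**Figure D3:**
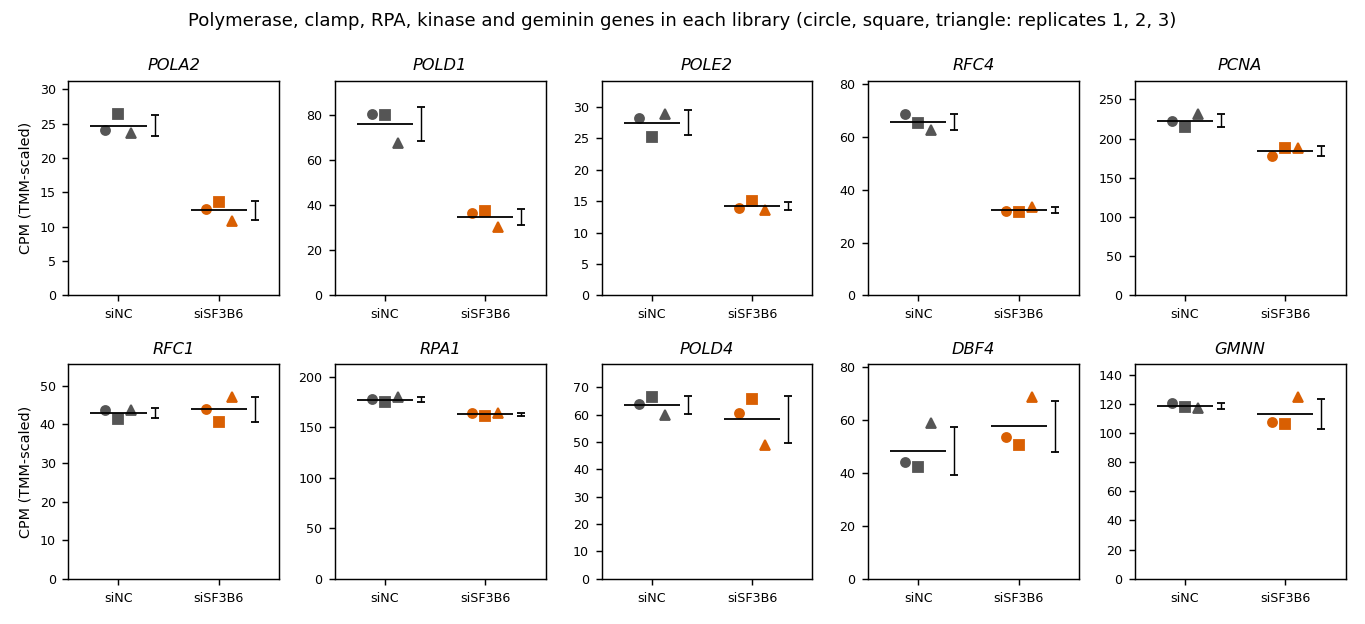
CPM in each library (vertical axes, TMM-scaled, each from 0) for 10 of the genes in siNC (grey) and siSF3B6 (orange); circles, squares and triangles are replicates 1, 2 and 3, horizontal lines are means and bars are SD (n = 3). The groups are apart in POLA2, POLD1, POLE2, RFC4, PCNA and RPA1 and overlap in RFC1, POLD4, DBF4 and GMNN.

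The 3 enzymes that finish Okazaki fragments were all called lower, with a median of -0.77. LIG1, the ligase that seals the fragments, stood at 79.8, 77.5 and 69.2 CPM in siNC, against 42.0, 41.7 and 36.7 CPM in siSF3B6. The groups did not overlap, at -0.91 (SE 0.09, edgeR adjusted p = 9.25e-06). FEN1, the flap endonuclease, fell by 0.77 on the log2 scale. DNA2, a nuclease and helicase for long flaps, had the smallest change, from 19.1, 19.4 and 21.6 CPM to 14.3, 13.4 and 17.1 CPM. Its groups were also apart, at -0.43 (SE 0.11, edgeR adjusted p = 0.00648). With the GC and length correction the DNA2 value was -0.64.

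GINS joins MCM and CDC45 in the active helicase. All 4 GINS genes were called lower by at least 1.5-fold, with a median of -0.81. GINS2 (chromosome 16, 85676198 to 85690073), whose promoter is shown above, stood at 29.8, 28.8 and 27.4 CPM in siNC, against 14.5, 15.4 and 13.5 CPM in siSF3B6. The groups were far apart, at -0.98 (SE 0.09, edgeR adjusted p = 6.16e-06). GINS1 fell by 0.91 and GINS4 by 0.70 on the log2 scale. GINS3 had the smallest change of the 4, from 16.3, 14.9 and 14.4 CPM to 9.94, 10.2 and 10.1 CPM. It too was without overlap, at -0.59 (SE 0.10, edgeR adjusted p = 3.84e-04). GINS4 shares 23.6% of its exonic bases with AC009630.1 and AC009630.2, and GINS3 10.9% with AC009118.2, on the opposite strand, and the use of strand in counting is not given in the sources used here.

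Among the 6 ORC genes, 1 was called lower, 1 higher and 4 were not called, with a median of 0.09. ORC1, the subunit whose level is known to vary through the cell cycle (chromosome 1, 52372829 to 52404459), stood at 23.2, 19.3 and 21.5 CPM in siNC, against 14.7, 15.5 and 13.7 CPM in siSF3B6. The groups did not overlap, at -0.55 (SE 0.10, edgeR adjusted p = 7.87e-04). ORC4, a core subunit (chromosome 2, 147930397 to 148021604), stood at 39.6, 37.3 and 48.1 CPM in siNC, against 51.6, 54.0 and 61.0 CPM in siSF3B6. Every siSF3B6 library lay above every control, at 0.41 (SE 0.10, edgeR adjusted p = 0.00644). Against siNC replicate 3 alone the value of ORC4 was 0.19 and was not called (edgeR adjusted p = 0.384). With the GC and length correction it was 0.20 (edgeR adjusted p = 0.0286).

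ORC3, the other subunit above the controls in every library, stood at 32.7, 32.9 and 36.9 CPM in siNC, against 37.4, 38.9 and 44.7 CPM in siSF3B6. The margin between the groups was narrow, and the change of 0.24 was not called (SE 0.09, edgeR adjusted p = 0.0559). It was called without siNC replicate 3 (0.30, edgeR adjusted p = 0.0223). Against siNC replicate 3 alone the value of ORC3 was 0.12. With the GC and length correction it was 0.08 and was not called (edgeR adjusted p = 0.247). ORC5, a core subunit with an ATP-binding fold, stood at 26.6, 28.6 and 26.1 CPM in siNC, against 27.7, 32.0 and 31.7 CPM in siSF3B6. These overlapped, at 0.17 (SE 0.09, edgeR adjusted p = 0.150). ORC2, a core subunit, stood at 31.7, 28.7 and 29.03 CPM in siNC, against 29.7, 28.4 and 31.9 CPM in siSF3B6. ORC6, the smallest subunit, stood at 35.0, 33.4 and 39.2 CPM in siNC, against 34.8, 33.6 and 38.3 CPM in siSF3B6. Both ranges were interleaved, at 0.01 and -0.01 (SE 0.09 and 0.09, edgeR adjusted p = 0.957 and 0.929), and the signs of ORC2 and ORC6 changed with the setting. With the GC and length correction ORC2 was at -0.18 and was called lower (edgeR adjusted p = 0.0423). Whether ORC1 differed in its change from the other subunits was not tested.

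**Figure D4:**
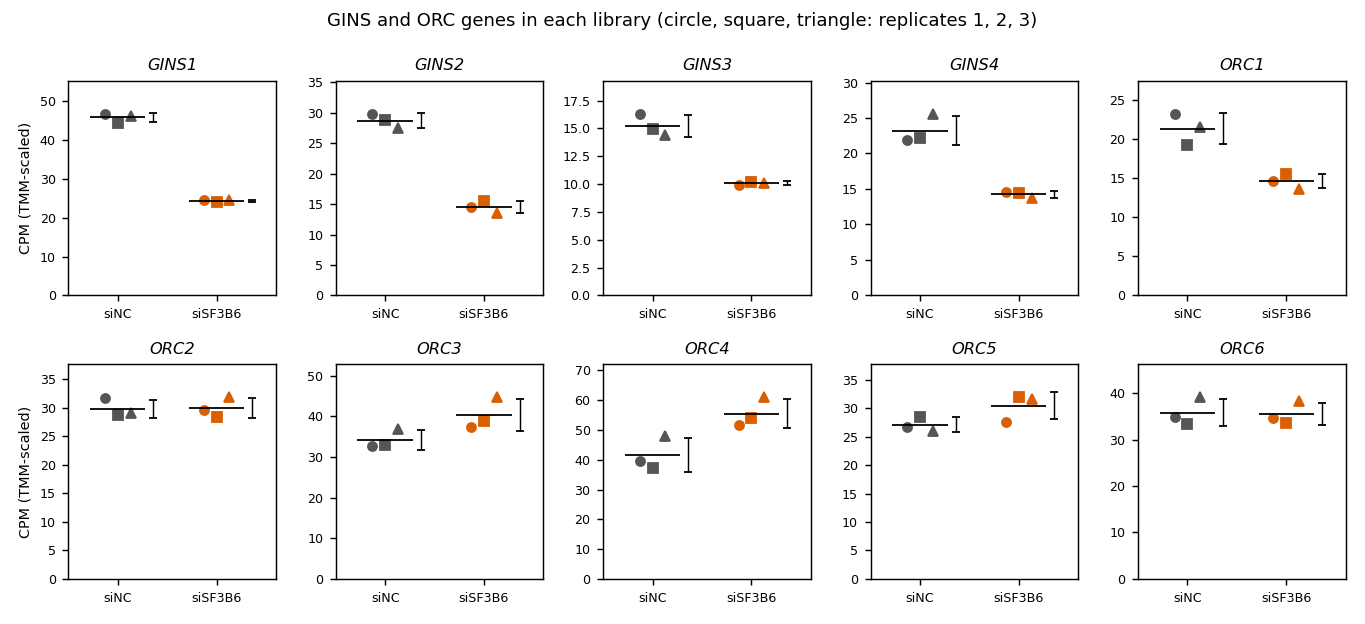
CPM in each library (vertical axes, TMM-scaled, each from 0) for the 4 GINS and 6 ORC genes in siNC (grey) and siSF3B6 (orange); circles, squares and triangles are replicates 1, 2 and 3, horizontal lines are means and bars are SD (n = 3). All GINS genes and ORC1 are lower without overlap, ORC3 and ORC4 are above the controls in every library, and ORC2, ORC5 and ORC6 overlap.

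The licensing factors CDC6 and CDT1 were called lower, and geminin, the inhibitor of CDT1, was not called. CDT1 (chromosome 16, 88803213 to 88809258) stood at 52.8, 54.6 and 53.1 CPM in siNC, against 36.4, 34.5 and 25.4 CPM in siSF3B6. The siSF3B6 values were spread, with replicate 3 the lowest, and all lay below the controls, at -0.74 (SE 0.11, edgeR adjusted p = 2.50e-04). After the GC and length correction the value was -0.46. CDC6, an ATPase that works with ORC and whose promoter is shown above, fell by 0.45 on the log2 scale (SE 0.08, edgeR adjusted p = 4.47e-04). GMNN, which encodes geminin, stood at 121, 118 and 117 CPM in siNC, against 107, 106 and 125 CPM in siSF3B6. Replicate 3 of siSF3B6 was the highest of the 6 libraries, and the change of -0.07 was not called (SE 0.08, edgeR adjusted p = 0.519).

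Of the DBF4-dependent kinase, the catalytic subunit was called lower and the activating subunit was not called. CDC7, the kinase, stood at 28.5, 26.0 and 29.3 CPM in siNC, against 18.6, 18.6 and 23.3 CPM in siSF3B6. The groups did not overlap, at -0.47 (SE 0.10, edgeR adjusted p = 0.00267). DBF4, its activating subunit, stood at 44.0, 42.4 and 58.8 CPM in siNC, against 53.5, 50.7 and 68.7 CPM in siSF3B6. In both groups replicate 3 was the highest, the groups overlapped, and the change of 0.25 was not called (SE 0.13, edgeR adjusted p = 0.152). It was called higher without siNC replicate 3 (0.42, edgeR adjusted p = 0.0114), called higher without the libraries numbered 3 (0.27, edgeR adjusted p = 2.3e-05), and was -0.04 against siNC replicate 3 alone. The difference between CDC7 and DBF4 was not tested.

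Of the 4 origin firing factors, 3 were called lower, with a median of -0.44. RECQL4, a helicase-family protein needed for helicase activation, stood at 74.3, 78.1 and 67.4 CPM in siNC, against 45.2, 44.6 and 36.3 CPM in siSF3B6. All siSF3B6 values lay below the controls, at -0.80 (SE 0.10, edgeR adjusted p = 4.64e-05), and at -0.51 after the GC and length correction. TICRR, which bridges kinase signals to helicase activation, fell by 0.56 on the log2 scale. TOPBP1, a scaffold for firing and for checkpoint signalling, was called lower at -0.32 (SE 0.11, edgeR adjusted p = 0.0311) although siSF3B6 replicate 3, at 43.4 CPM, lay above siNC replicate 2, at 42.1 CPM. Its call was lost without siNC replicate 1 (edgeR adjusted p = 0.0974), siNC replicate 3 (0.0677), siSF3B6 replicate 1 (0.138) or siSF3B6 replicate 2 (0.122). The call was also lost on the unfiltered log2(FPKM + 1) scale (-0.31, limma adjusted p = 0.125) and against siNC replicate 3 alone (-0.39). DONSON, a factor that helps bring GINS to the helicase, stood at 36.3, 33.9 and 36.7 CPM in siNC, against 30.2, 29.7 and 32.7 CPM in siSF3B6. The groups did not overlap, but the change of -0.21 was not called (SE 0.08, edgeR adjusted p = 0.0615), and without siSF3B6 replicate 3 it was called (edgeR adjusted p = 0.0194).

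CAF-1, which deposits histones behind the fork, was lower in both subunits listed. CHAF1A, the large subunit (chromosome 19, 4402662 to 4445018), stood at 83.4, 84.0 and 71.2 CPM in siNC, against 42.5, 43.2 and 39.3 CPM in siSF3B6. The groups lay far apart, at -0.93 (SE 0.09, edgeR adjusted p = 7.95e-06). CHAF1B, the middle subunit, stood at 31.2, 32.0 and 26.1 CPM in siNC, against 19.95, 19.4 and 16.9 CPM in siSF3B6. It was also without overlap, at -0.67 (SE 0.10, edgeR adjusted p = 2.47e-04).

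All 4 fork protection genes were called lower, with a median of -0.61. TIMELESS, which with TIPIN stabilises the moving fork (chromosome 12, 56416373 to 56449403), stood at 50.3, 52.1 and 48.1 CPM in siNC, against 28.5, 28.4 and 27.5 CPM in siSF3B6. The replicates were tight within each group, at -0.83 (SE 0.08, edgeR adjusted p = 8.73e-06). CLSPN, the mediator that links stalled forks to the CHEK1 kinase, fell by 0.64 and TIPIN by 0.57 on the log2 scale. WDHD1, which couples polymerase alpha to the helicase, had the smallest change of the 4, from 37.1, 36.8 and 41.0 CPM to 25.9, 27.5 and 32.1 CPM. Its groups did not overlap, at -0.43 (SE 0.10, edgeR adjusted p = 0.00339). TIPIN shares 21.0% of its exonic bases with RPL9P25, a pseudogene on the same strand.

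Levels per transcript length, from the deposited FPKM, ran in siNC from 1.16 for POLA1 to 136 for PCNA, with a median of 7.63. FEN1 was next in order at 80.6 ± 8.83 FPKM in siNC and 45.7 ± 0.448 FPKM in siSF3B6 (SD, n = 3), and PCNA stood at 136 ± 6.77 and 108 ± 3.53 FPKM. Across the 49 genes the siNC level and the log2 fold change had a Spearman's rho of 0.0149 (n = 49 genes that share the same libraries), so the order of levels was not the order of changes. Within complexes the levels also differed: POLE stood at 3.79 FPKM and its small partner POLE3 at 41.2 FPKM in siNC. GC content was related in rank to the change (rho -0.473 over the same 49 genes), with lower values in genes of higher GC content. The median GC content was 45.4% in the 49 and 48.4% in all genes tested. With GC content and length corrected in each library, 42 of the 49 were called lower and 1 higher, against 22.7% and 23.7% of all genes tested, and the median was -0.53. The 4 gained calls were RPA1 (-0.16), GMNN (-0.17), DONSON (-0.28) and ORC2 (-0.18).

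**Figure D5:**
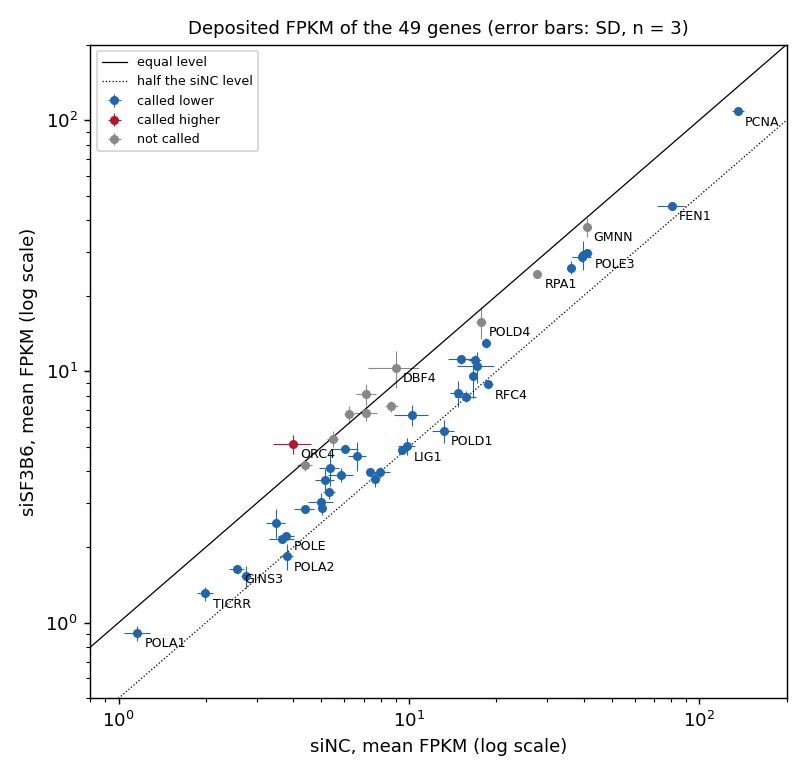
Mean deposited FPKM in siSF3B6 (vertical axis) against siNC (horizontal axis), both on log scales, for the 49 genes, with SD bars (n = 3). The solid line marks equal levels and the dotted line a 2-fold lower level in siSF3B6; most points lie between them, from POLA1 at 1.16 FPKM to PCNA at 136 FPKM in siNC.

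Genes that work beside these proteins were counted in the same fit, where 20.0% of all genes tested were called lower and 20.8% higher. Of 11 genes of the MCM and CDC45 helicase, 9 were called lower, 0 higher and 2 were not called, with a median of -0.61. CDC45, the helicase cofactor that binds GINS, fell from a mean of 42.0 to 18.5 CPM (-1.19, SE 0.08, edgeR adjusted p = 9.75e-07), and MCM3, a subunit of the MCM ring, by 0.98 on the log2 scale. Of 36 tested genes of the replisome accessory and fork response list, 18 were called lower, 3 higher and 15 were not called, with a median of -0.25. TONSL, which reads new histones behind the fork, fell by 0.97 on the log2 scale, and DBF4B, the second activator of CDC7, by 0.96. The 3 called higher were TOP1 (0.45), ASF1A (0.93) and HUS1 (0.52), and TOP1 was not called against siNC replicate 3 alone (0.29, edgeR adjusted p = 0.182), where ASF1A was at 0.61. Against siNC replicate 3 alone, 11 of that list were called lower, against 7.24% of all genes tested, and 9 of the helicase list.

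Polymerases with other tasks were counted in the same fit, where 20.0% of all genes tested were called lower and 20.8% higher. Of 12 repair and translesion polymerases and partners, 4 were called lower and 8 were not called, with a median of -0.09, and PRIMPOL, a repriming enzyme, fell by 0.88 on the log2 scale. Of 11 genes for replication of the mitochondrial genome, 6 were called lower and 5 were not called, with a median of -0.26, and TOP1MT, the mitochondrial topoisomerase, fell by 0.75. Mitochondrial reads were higher in the same siSF3B6 libraries, and their part in these values was not tested. Of 13 E2F and pocket protein genes, 4 were called lower, 4 higher and 5 were not called, with a median of 0.02. E2F1, an activator of replication genes, fell from a mean of 119 to 46.7 CPM (-1.34 on the log2 scale), and E2F2 from 12.01 to 4.75 CPM (-1.33, and -0.75 on the log2(FPKM + 1) scale). E2F8 (-0.52) and TFDP1 (-0.32) were also called lower. The 4 called higher were E2F3 (0.32), E2F5 (0.53), E2F6 (0.45) and E2F7 (0.45). Against siNC replicate 3 alone, with 7.24% of all genes called lower and 6.60% higher, the repair list had 3 called lower and 0 higher, the mitochondrial list 4 and 0, and the E2F list 3 and 1. These lists share libraries with the 49 genes, and differences between lists were not tested.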

How the data were processed

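RNA-seq of 6 libraries (3 siSF3B6, 3 siNC) was analysed, grouped by sample title. Polyadenylated RNA was made into strand-specific libraries, per the labels' protocols. The deposited read counts are whole numbers per gene, not normalized by the authors. FPKM values were deposited by the authors for 39210 genes, and the gene length behind them is not given in the sources used here. HISAT2, DESeq2 and hg38 are named, without versions, in the submitters' processing notes. Neither the counter and its strand setting nor the annotation release is given in the sources used here.

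Counts were tested with edgeR 4.0.16 in R 4.3.3 (filterByExpr, TMM factors, glmQLFit and glmQLFTest, no replicate block), with Benjamini-Hochberg adjustment over the 16869 genes tested and calls under 0.05. The SE is the log2 fold change over the square root of F. CPM is scaled by TMM. The test was tested on simulated data. Those counts were drawn from levels and spreads fitted to these same libraries, so that run does not check the calls given here. Gene positions, GC content and overlaps came from GENCODE 29 on GRCh38, not stated to be the authors' annotation, and promoters from RefSeq.

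The members, lists and rules were chosen with earlier results of these data known. Values in each library are given for the members with the lowest and highest change in each functional group and for those not called or called higher. For the comparison lists, at most 2 called genes of at least 5 CPM with the largest change are named, and other genes named were chosen after their values were seen. Alternatives were DESeq2 1.42.0, RLE factors, library size only, no filter on low counts, a minimum of 1 CPM in 3 libraries, the replicate block, a GC and length offset (lowess, span 0.3), both together, limma 3.58.1 on log2(FPKM + 1) and on log2(FPKM + 0.1) above a mean of 0.5 FPKM, the former also unfiltered, leaving out each library, leaving out the libraries numbered 3, and siNC replicate 3 as the only control.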

Additional observations from a re-analysis of the deposited data

How the results depend on the processing

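Of the 38 genes called lower, 32 were called lower under all 19 alternatives and all 38 stayed below 0. The other 6 (POLA1, PRIM2, POLD2, POLE4, PCNA and TOPBP1) lost the call in at least 1. Leaving out each library in turn gave 34 to 39 genes called lower, 1 to 3 called higher (3 without siNC replicate 3), a median of -0.58 to -0.45, and 5044 to 7571 genes called over the whole table. The number called higher was 3 with the replicate block, 3 without the libraries numbered 3, and 0 with log2(FPKM + 1) without a filter and against siNC replicate 3 alone. The median was -0.65 with library size only and -0.47 with log2(FPKM + 1), with and without the filter. Genes called over the whole table fell from 6889 to 3817 with log2(FPKM + 1) without a filter and to 2471 against siNC replicate 3 alone. With library size only, which moved the median of all genes to -0.10, 4558 genes were called lower and 2459 higher, against 3380 and 3509. With log2(FPKM + 1) without a filter these were 2256 and 1561. Without the libraries numbered 3, 9470 genes were called over the whole table. The causes were not tested.

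Same-numbered libraries correlated at 0.04, 0.106 and 0.136 in their deviations from the group means. Each library correlated best with its own number, but siSF3B6 replicate 1 was at 0.037 with siNC replicate 2, against 0.04. Deviations from a group mean are tied to each other, so these values do not settle whether the libraries were paired. The design text states no pairing. The replicate block gave 39 of the 49 genes called lower. Over all 16869 genes tested it called 4005 lower and 4047 higher, 8052 in all. ORC3 (0.24, edgeR adjusted p = 0.00814) and DBF4 (0.25, edgeR adjusted p = 0.0046) gained a higher call with the block.

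Only genes that were not called in the main test changed sign, and the cause was not tested. RFC1 was at -0.072 with library size only, -0.133 with the GC and length offset, -0.132 with the offset and block, -0.020, -0.023 and -0.020 with log2(FPKM + 1), log2(FPKM + 0.1) and the unfiltered log2(FPKM + 1), -0.009 without the libraries numbered 3, -0.011 against siNC replicate 3 alone, and -0.029 to 0.087 when 1 library was left out. ORC2 was at -0.097, -0.176, -0.174, -0.036, -0.044 and -0.036 in the first 6 of these settings, -0.058 without the libraries numbered 3, and -0.045 to 0.051 when 1 library was left out. It was called lower with the offset (edgeR adjusted p = 0.0423) and with the offset and block (edgeR adjusted p = 0.0318). POLD4 was at 0.063 with the offset and 0.060 with the offset and block. ORC6 was at 0.001 without the libraries numbered 3 and at -0.075 to 0.060 when 1 library was left out. DBF4 was at -0.043 against siNC replicate 3 alone. PRIM2 lost its call in the DESeq2 test (adjusted p = 0.0588). Every member had at least 167 reads per library. What depth limits was not tested beyond the standard errors, which were largest for DBF4 (0.13) and POLE4 (0.12).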
